A study of Schizosaccharomyces pombe with 8 samples.

Results

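The distribution of acetylated histone H4 (H4ac) relative to histone H3 was examined over the protein-coding genes of the fission yeast Schizosaccharomyces pombe. All gene rows on chromosomes I, II and III were taken, which gave 5118 of the 5129 gene rows of the deposited table. The other 11 are mitochondrial. The cells were the wild-type strain YAM2394, which carries h+ ade6-M210 ura4-D18 leu1-32, grown exponentially and fixed with formaldehyde. No mutant or treatment was compared. Chromatin immunoprecipitation and sequencing (ChIP-seq) was done in 2 biological replicates with an antibody against H3 and with one against H4 acetylated on its amino-terminal lysines. Values are tag densities in tags per nt. Each library had been scaled by 1 factor, so that the median nuclear gene stood at 1.23 to 1.24 in all 4 libraries of H3 and H4ac, and a log2 H4ac/H3 of 0 marks a gene with the typical ratio, not an absolute amount.

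In chromatin, DNA is wound around octamers of the core histones H2A, H2B, H3 and H4. Acetylation removes the positive charge of lysines in the H4 tail. It is placed by acetyltransferases such as Mst1 of the NuA4 complex and is removed by deacetylases such as Clr6 and Sir2. Acetylated H4 is a known mark of active chromatin and is depleted from silent chromatin, which in fission yeast is found next to telomeres, at centromeres and at the silent mating-type loci. Because the amount of acetylated H4 can vary with that of nucleosomes, its density is set here against that of H3 over the same gene.

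Nuclear gene rows held 14013995 to 15214197 tags per library, with a median of 2327.5 to 2613 tags per gene. The ura4 gene was at 0 in all 4 libraries, as its deletion in the strain gives, and was the only nuclear gene that failed the filter on low density, which asked for 0.05 tags per nt or more in any 2 libraries. The study describes unique mapping. Yet the 13 Tf2 retrotransposon genes, of which at most 9% of the 50-mers occur once in the genome, had H3 densities from 1.40 to 1.60 tags per nt, so tags of repeated sequences were placed in the table, and such genes cannot be told from their copies. Of the 5117 genes tested, 2623 overlap another gene on the chromosome and share tags with it.

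Most genes differed in H4ac/H3 by more than the replicates did. By limma with Benjamini-Hochberg adjustment, 2404 of 5117 genes (47%) had H4ac above H3 and 2334 (45.6%) had it below at an adjusted p under 0.05, and 379 passed neither way. At least 1.5-fold differences were found in 1163 genes (22.7%) above and 955 (18.7%) below. Across genes the log2 ratio had an SD of 0.76, against a median SE of 0.029. The ratio spanned from -1.05 to 1.43 between the 5% and 95% points of the genes. With 2 libraries per antibody, an exact permutation test of a single gene cannot give a two-sided p below 0.333, so p-values rest on the spread shared across genes. Since nearly every gene passes, the size of the ratio is what separates genes.

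Both densities contributed to the ratio, H4ac more than H3. The SD of the log2 density across genes was 0.56 for H4ac and 0.38 for H3, and genes rich in H3 tended to be poor in H4ac (Spearman's rho of -0.42 over 5117 genes, which are not independent replicates). Of the 1163 genes at least 1.5-fold above, 80.6% lay in the highest quartile of H4ac and 73.2% in the lowest quartile of H3, and 53.7% in both. Of the 955 genes at least 1.5-fold below, 93.3% lay in the lowest quartile of H4ac and 64.8% in the highest quartile of H3. In both sets, more genes stood out in H4ac than in H3. Choosing genes by the ratio favours this, given the wider spread of H4ac.

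**Figure D1:**
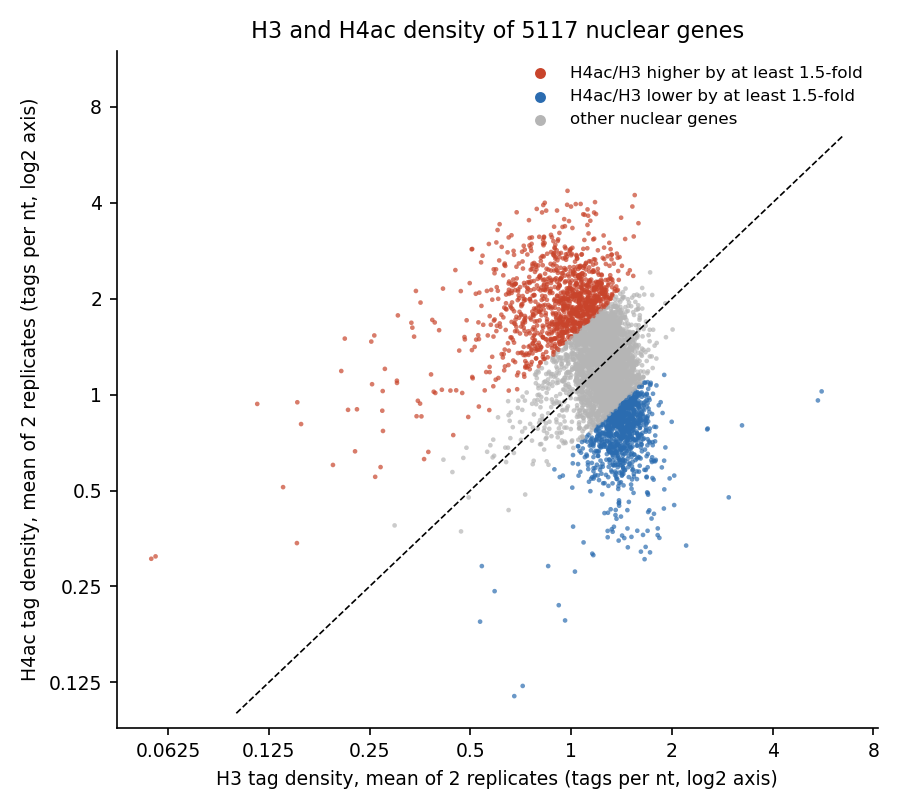
Each point is a nuclear gene, with its H3 density on the x axis and its H4ac density on the y axis (tags per nt, mean of 2 replicates, log2 axes). Red points mark the 1163 genes with H4ac/H3 at least 1.5-fold above and blue points the 955 at least 1.5-fold below the dashed line of equal density, and the cloud runs from upper left to lower right. The points at the far right are tlh1 and tlh2.

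Of the 10 genes with the highest ratio, 7 code for proteins annotated as uncharacterized, as do 368 of all 5117 genes. They were chosen among genes of at least 300 nt, with at least 0.1 tags per nt of H3 and at least 90% unique 50-mers. SPAPB15E9.02c on chromosome I (3991830 to 3994099) came first, with H3 densities of 0.107 and 0.124 tags per nt and H4ac densities of 0.947 and 0.923. Its H4ac was 7.55-fold above H3 (log2 ratio 2.92, SE 0.065, limma adjusted p = 4.15e-11). SPAC56F8.13 had 0.214 and 0.208 for H3 and 1.501 and 1.497 for H4ac (log2 ratio 2.77). It lies wholly within mug115, a gene named for raised expression in meiosis, whose ratio was 2.47, and SPAC56F8.15 (2.49) overlaps mug115 by 748 nt, so these 3 values share tags.

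Different combinations of H3 and H4ac stood behind these ratios. In ssa2, a heat shock protein gene of the Hsp70 family on chromosome III, H3 was 0.125 and 0.179 tags per nt and H4ac 0.907 and 0.985, so H4ac was below the median gene and the ratio of 2.58 (SE 0.14) rested on little H3. By contrast, rib7, which codes for an enzyme of riboflavin synthesis, had H3 of 0.486 and 0.528 and H4ac of 2.92 and 2.81, more than in most genes (log2 ratio 2.48). SPAC1565.03 was alike, with H3 of 0.524 and 0.486 and H4ac of 2.92 and 2.80 (log2 ratio 2.48). SPAC7D4.08, SPBC1685.17 and SPAC1F8.08 completed the list with ratios of 2.59, 2.53 and 2.51. Of the 10 genes, 8 had less H3 than 99% of genes have (0.464 tags per nt), and 7 had H4ac above the gene median.

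At genes with little H3, signal that is not tied to nucleosomes would weigh most. Mitochondrial DNA, which carries no histones, had a median H4ac density of 1.08 tags per nt and a median H3 density of 0.0103 over its 11 gene rows. Among nuclear genes of at least 300 nt with at least 90% unique 50-mers, the lowest H4ac density was 0.242 tags per nt (SPBC12C2.14c). Densities were not corrected for the number of DNA copies per cell, and the part of such signal in the high ratios was not tested. Of the 1163 genes at least 1.5-fold above, 1102 (94.8%) had H4ac above the gene median of 1.23, which choosing genes by the ratio itself favours. A high ratio with H4ac below the median, as in ssa2, was found in 61 genes. Among genes outside the lowest H3 quartile, picked after the values were seen, pfd4 (a prefoldin subunit) reached 1.76, with H3 of 1.14 and 1.10 and H4ac of 3.89 and 3.74, and ddr48 reached 1.69, with H3 of 1.12 and 1.13 and H4ac of 3.64 and 3.65.

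The 10 genes with the lowest ratio all lay within 100 kb of an end of chromosome I or II, and 187 of all 5117 genes (3.65%) lie within 100 kb of any chromosome end. The lowest was hry1 (chromosome I, 5502560 to 5503291), which codes for a protein with a cation-binding HHE domain, with H3 of 2.205 and 2.209 tags per nt and H4ac of 0.336 in both replicates. Its H4ac was 6.41-fold below H3 (log2 ratio -2.68, SE 0.037, limma adjusted p = 6.51e-12). SPAC186.08c, an L-lactate dehydrogenase gene, followed with H3 of 1.88 and 1.79 and H4ac of 0.353 and 0.358 (log2 ratio -2.34). In the other 8 the ratio lay between -2.30 and -2.05, and most of them also code for enzymes or transporters of nutrients, such as SPAC186.07c and SPAC186.02c (hydroxyacid dehydrogenases), SPAC869.03c (a urea transporter), SPAC869.01 (an amidase), SPAC869.04 (a formamidase-like protein), mel1 (melibiase, which splits melibiose) and shu1, which takes up heme. SPBPB2B2.08 is uncharacterized. In all 10 genes the densities of both H4ac replicates were below those of both H3 replicates. This follows from choosing the genes by a low ratio in these same libraries. H3 exceeded the gene median in all of them, and in 9 of them H4ac was among the lowest 1% of genes (0.435 tags per nt or less).

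**Figure D2:**
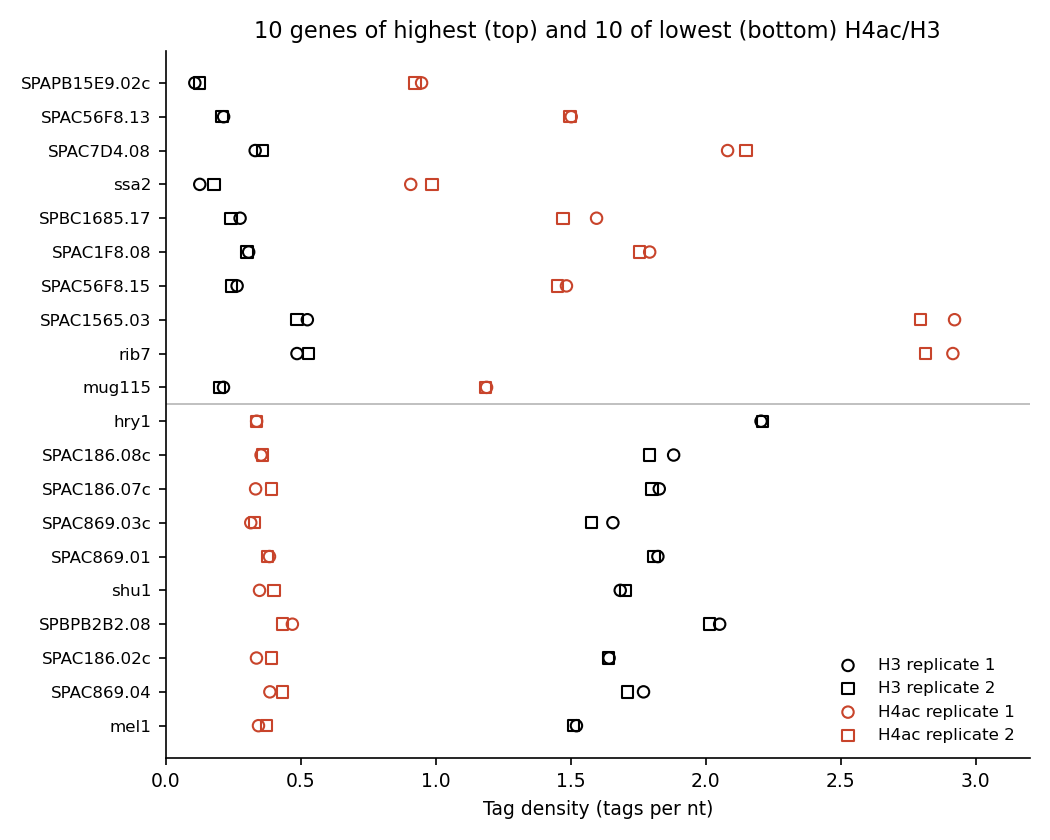
Tag density in tags per nt (x axis) of the 10 genes with the highest and the 10 with the lowest H4ac/H3, with 1 symbol per library (black for H3, red for H4ac; circles for replicate 1, squares for replicate 2). Replicates lie close to each other. In the lower genes H3 sits between 1.51 and 2.21 and H4ac between 0.314 and 0.469, whereas in the upper genes H3 is at or below 0.528.

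Genes were then ordered by the distance of their midpoint from the nearer end of the assembled chromosome. The median log2 H4ac/H3 was -1.70 within 20 kb (n = 21 genes), -1.25 from 20 to 50 kb (n = 62), -0.18 from 50 to 100 kb (n = 104), 0.12 from 100 to 200 kb (n = 233) and 0.02 farther in (n = 4697). Of the 21 outermost genes, 20 were at least 1.5-fold below H3, a share of 95.2% against 18.7% of all genes. Both densities moved. The median H3 density was 1.58 tags per nt within 20 kb and 1.24 beyond 200 kb, and the median H4ac density was 0.618 and 1.24. Replicates 1 and 2 alone gave medians of -1.64 and -1.67 within 20 kb. Repeated sequence is common there. None of the genes within 20 kb had at least 90% unique 50-mers, and genes that did had medians of -0.80 from 20 to 50 kb (n = 29) and -0.29 from 50 to 100 kb (n = 93). The bins pool chromosomes I, II and III, whose ends differed, and the medians of unique genes were not split by chromosome.

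The ends of chromosomes I and II stood apart from those of chromosome III, which carry the ribosomal DNA repeats. Within 50 kb of an end, the median was -1.63 on chromosome I (n = 34), -1.59 on chromosome II (n = 27) and -0.35 on chromosome III (n = 22). All but 1 of the 61 genes on chromosomes I and II were at least 1.5-fold below H3, against 7 of 22 on chromosome III. The exception was SPAC750.01 on the right arm of chromosome I, at -0.15, with H3 of 1.32 and 1.33 tags per nt and H4ac of 1.19 and 1.21, of whose 50-mers 65.8% are unique. The 4 ends of chromosomes I and II were alike, with medians of -1.63 and -1.66 for the left and right end of I and -1.52 and -1.60 for those of II.

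The outermost genes with H4ac above H3 did not always mark where these low stretches were first broken. From the left and right end inward, the unbroken row of genes at least 1.5-fold below H3 held 18 and 7 genes on chromosome I. It held 16 and 14 genes on chromosome II, and 1 at each end of chromosome III. Counted from the left end of chromosome I, 19 genes preceded the first gene with H4ac above H3, fex1 (a fluoride export channel) at 55.7 kb, where the ratio was 0.86, with H3 of 1.01 and 0.970 tags per nt and H4ac of 1.83 and 1.78. At the right end 26 genes preceded the first, put4 (a proline transporter) at 85.1 kb, with 0.12. On chromosome II the first were SPBPB8B6.05c (an L-asparaginase gene, 0.61) at 55.0 kb after 16 genes, and SPBC8E4.02c (1.11) at 96.4 kb after 25 genes. The ratio of SPBC8E4.02c rested on little H3 (mean 0.270 tags per nt). Its mean H4ac was 0.592, below the 5% point of genes (0.664). On chromosome III, new22 (0.82) stood at 36.5 kb after 2 genes and dhm1 (0.63) at 43.8 kb after 10.

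**Figure D3:**
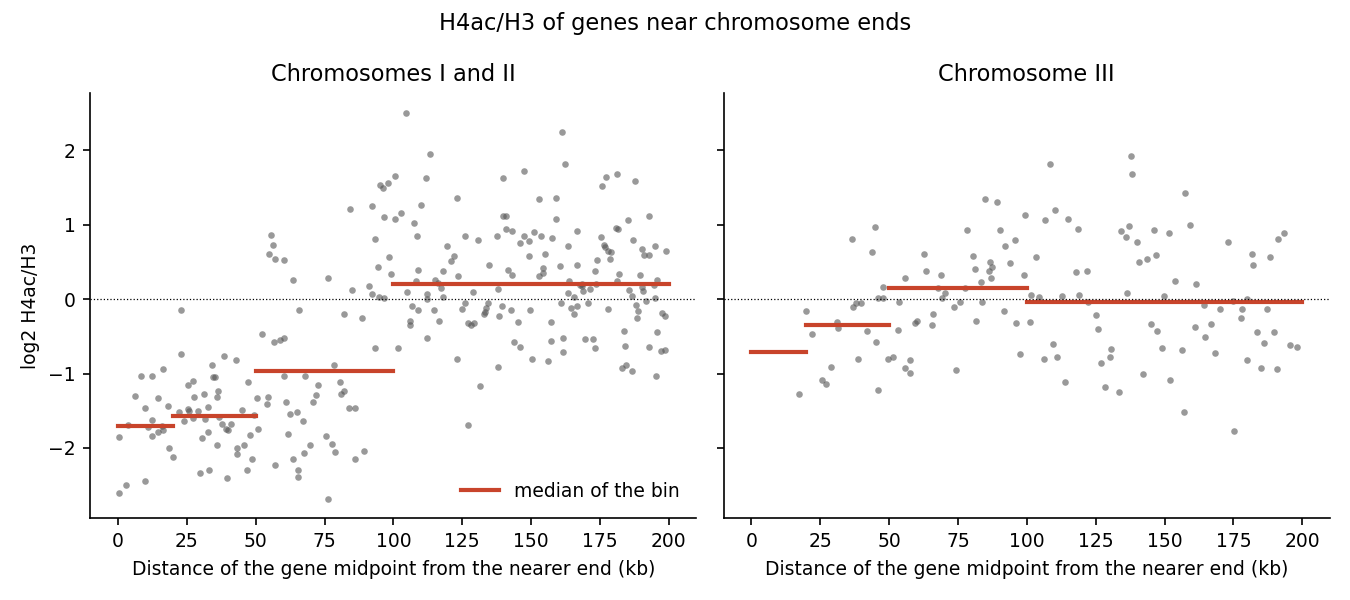
Log2 H4ac/H3 (y axis) of each gene within 200 kb of a chromosome end against the distance of its midpoint from that end in kb (x axis), for chromosomes I and II (left) and III (right). Red lines are medians of the distance bins, which rise from -1.71 to 0.20 on chromosomes I and II. On chromosome III they stay between -0.71 and 0.16, and the outermost bin there holds 2 genes.

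The longest runs of consecutive genes that were each at least 1.5-fold below H3 lay at these ends. Of all 647 such runs, 74.7% were single genes, and 12 held 5 or more. The longest held 18 genes. One ran from tlh1 to plb4 over 48.4 kb at the left end of chromosome I (median -1.63), and the other from SPAC869.09 to pdc102 over 57.7 kb on the right arm (median -1.90), with hry1 as its lowest gene. In this second run the end genes were at -1.23 for SPAC869.09 and -1.15 for pdc102, a pyruvate decarboxylase gene. A run of 16 genes followed at the left end of chromosome II, from SPBC1348.15 (-1.85) to grt1 (-1.56, a transcription factor), with SPBC1348.07 at -2.12. The tlh1 and tlh2 genes code for RecQ-like helicases next to the telomeres and had H3 of 5.44 and 5.48 and of 5.62 and 5.59 tags per nt, far above the gene median, with H4ac of 0.963 and 0.955 and of 1.03 and 1.02. Their log2 ratios were -2.50 and -2.44. Only 0.891% and 6.75% of their 50-mers are unique, so the tags can stem from several copies, while the plb4 gene (a phospholipase) at the inner end of the first run had -1.12 with H3 of 1.61 and 1.58.

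Away from the ends, low and high genes were scattered. Of 25 genes at least 4-fold below H3, 20 lay within 100 kb of an end, against the 3.65% of all genes that lie there. Of 805 runs of genes at least 1.5-fold above H3, 69.9% were single genes, and 9 held 5 or more. The longest held 8 genes over 14.8 kb on chromosome I, from SPAC1071.13 (1.55) to dph4 (1.51), with ina22 highest at 1.60. It includes hsp90, the gene of a major chaperone, with H3 of 0.379 and 0.443 tags per nt and H4ac of 1.04 and 1.03 (log2 ratio 1.32). Runs of 6 genes extended from SPAC11D3.16c (0.94) to SPAC5H10.03 (0.91), where dgc1 was highest at 1.72, and from imp3 (1.12) to uga1 (0.94), where SPAC19D5.10c was highest at 2.44. Between next neighbours that do not overlap and lie over 100 kb from an end, Pearson's r of the ratio was 0.059, 0.087 and 0.10 on chromosomes I, II and III (n = 1581, 1297 and 604 pairs of genes), which describes neighbours that can share flanking chromatin.

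Low ratios over 100 kb from an end, picked after the values were seen, included SPBC23G7.10c, a flavin oxidoreductase gene near the mating-type region of chromosome II, with H3 of 1.77 in both replicates and H4ac of 0.406 and 0.439 (log2 ratio -2.04). The meiotic gene spo6, which codes for the regulatory subunit of a kinase needed for meiosis, had H3 of 1.68 and 1.72 and H4ac of 0.468 and 0.502 (log2 ratio -1.79). At the silent mating-type locus, mat3-Mc had H3 of 0.648 and 0.705 and H4ac of 0.116 and 0.110 (log2 ratio -2.48), but none of its 50-mers is unique.

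The flanks of the centromeres did not resemble the chromosome ends. Taking the longest stretch without a gene on each chromosome (39182, 51408 and 78172 nt), which covers the centromere, the median was 0.16 within 10 kb (n = 29 genes), 0.25 from 10 to 20 kb (n = 30) and 0.27 from 20 to 50 kb (n = 80), against -0.00 beyond 100 kb. Over whole chromosomes, the medians were 0.08 for I, 0.00 for II and -0.14 for III. Genes of chromosome III were lower than those of I at each length compared over 100 kb from an end, with 0.81 against 0.91 from 500 to 1000 nt, 0.08 against 0.28 from 1000 to 2000 nt, -0.40 against -0.11 from 2000 to 3000 nt and -0.46 against -0.31 from 3000 to 5000 nt.

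The ratio fell with the length of the gene. The median was 1.05 under 500 nt (n = 150), 0.85 from 500 to 1000 nt (n = 570), 0.21 from 1000 to 2000 nt (n = 2039), -0.18 from 2000 to 3000 nt (n = 1364), -0.35 from 3000 to 5000 nt (n = 825) and -0.65 for genes of at least 5000 nt (n = 169). Median H3 rose from 0.99 tags per nt in the shortest to 1.43 in the longest genes and median H4ac fell from 1.66 to 0.94. At least 1.5-fold above H3 were 92 of 150 genes under 500 nt and 1 of 169 genes of at least 5000 nt. The shortest genes also varied most, with quartiles of -0.01 and 1.67. Over 5117 genes, Spearman's rho of the ratio with length was -0.49.

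The decline with length was also seen among genes of like H3 density, except in the highest H3 quintile. In the lowest H3 quintile the median went from 1.47 under 500 nt to 0.38 from 3000 to 5000 nt, and in the middle quintile, where median H3 was 1.23 to 1.26 tags per nt in each bin, from 0.57 to -0.10. In the highest H3 quintile the order was not seen, with -0.96 under 500 nt (n = 22) and -0.64 from 3000 to 5000 nt (n = 291). The ratio also fell with GC content, from a median of 0.45 in the lowest GC quintile to -0.24 in the highest. Within genes of 1000 to 2000 nt these medians were 0.47 and -0.08. By the number of coding exons the medians differed little, from -0.04 for 1 exon (n = 2725) to 0.10 for 5 exons (n = 161).

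Distance to the upstream neighbour also ordered the genes. Over 100 kb from an end, divergent genes that overlap their upstream neighbour had a median of 0.27 (n = 590), and those with at least 2000 nt to it had -0.28 (n = 182). For genes in tandem, the median was 0.18 at 0 to 200 nt (n = 660), -0.15 at 1000 to 2000 nt (n = 185) and -0.06 at 2000 nt or more (n = 84). The part of shared tags in the ratios of overlapping genes was not tested.

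Within genes, H4ac was unevenly spread. In the 1080 genes with at least 2 coding exons whose first and last coding exon each had at least 100 nt, the first exon had a median log2 H4ac/H3 of 0.91 and the last exon -0.49. The median difference was 1.21. By limma on the difference per library, a test added after the medians were seen, the ratio was higher in the first exon in 888 genes (82.2%) and lower in 106 (9.81%) at an adjusted p under 0.05. Median H4ac was 2.40 tags per nt in first and 1.09 in last exons, and median H3 was 1.31 and 1.53, so H4ac differed more than H3. The median difference of the log2 ratios was 0.57 in genes of 500 to 1000 nt (n = 86), 1.26 from 1000 to 2000 nt (n = 449) and 1.14 in genes of at least 5000 nt (n = 36).

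The widest contrast, picked after the values were seen, was found in kap104, which codes for a nuclear import receptor. Its first exon had H3 of 0.768 and 0.759 and H4ac of 3.65 and 3.78 tags per nt, and its last exon had H3 of 1.66 and 1.67 and H4ac of 0.659 and 0.630. The difference of the log2 ratios was 3.62 (SE 0.085, limma adjusted p = 1.19e-10). In epl1, itself a subunit of the NuA4 acetyltransferase, H4ac was 5.97 and 6.26 in the first exon and 0.746 and 0.684 in the last (difference 3.58). The opposite order was widest in mde6, with H4ac of 0.480 and 0.634 in the first and 3.37 and 2.92 in the last exon (difference -2.89), and in the meiotic recombination gene rec7 the difference was -2.41. Since genes are compact in this yeast, a short exon can include tags of its flanks.

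**Figure D4:**
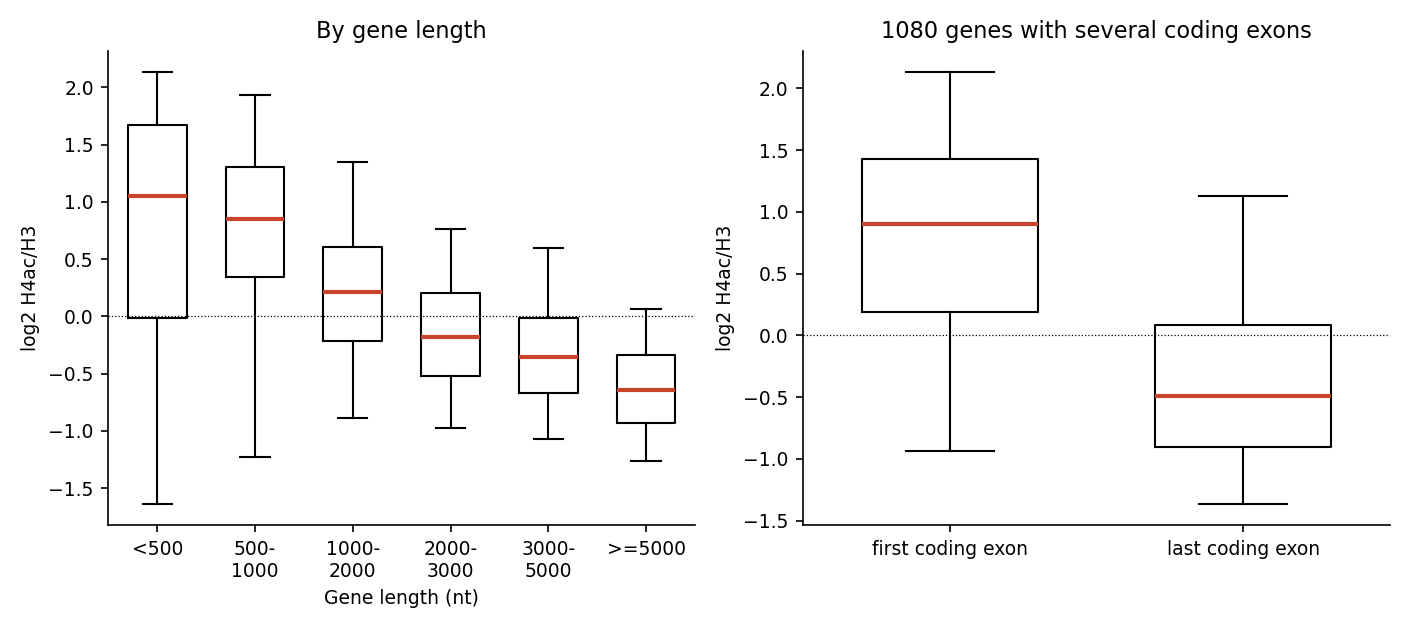
Left, log2 H4ac/H3 (y axis) of nuclear genes by gene length in nt (x axis). Right, the ratio in the first and the last coding exon of 1080 genes. Boxes span the quartiles, red lines are medians and whiskers reach the 5% and 95% points. Medians fall from 1.05 to -0.65 with length, and from 0.91 in first to -0.49 in last exons.

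Gene functions were compared through 29 lists of genes, given by their median and by counts at the 1.5-fold threshold beside those of all genes (0.01, 22.7% above and 18.7% below). The lists differ in gene length, with which the ratio fell, and medians at equal length are given only for some of them. Cytosolic ribosomal proteins, the protein components of the ribosome, had the highest median, 1.11 (n = 136). Of these genes, 115 were at least 1.5-fold above H3 and none below. Their median H3 density was 0.75 tags per nt, against 1.24 over all genes, and their median H4ac density 1.58, against 1.23. The genes are short, but at equal length their median was still higher than that of other genes, with 1.17 against 0.78 from 500 to 1000 nt (n = 101) and 0.55 against 0.20 from 1000 to 2000 nt (n = 21). The highest was rpl4102 (protein eL41), with H3 of 0.349 and 0.322 and H4ac of 1.59 and 1.66 (log2 ratio 2.24, SE 0.041). The lowest was rpl1603 (protein uL13), with H3 of 1.17 and 1.12 and H4ac of 0.922 and 0.915 (log2 ratio -0.31) over 2726 nt. In 15 ribosomal protein genes with several coding exons, the ratio was 2.17 in first and 0.08 in last exons, and it was higher in the first exon in all 15.

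Promoters of these genes carry the HomolD box, CAGTCACA, a core promoter element of ribosomal protein genes in fission yeast. On either strand, it was present within the 250 nt before the RefSeq mRNA start (assembly ASM294v3) in 87 of 136 ribosomal protein genes and in 134 of all 5109 promoters (2.62%). In the 83 ribosomal protein genes with the box and an annotated 5′ UTR, it lay a median of 44 nt before the start. To show how the box sits in promoters, 100 nt before the mRNA start are given 5′ to 3′, with the box in capitals. They come from the 3 highest and 2 lower ribosomal protein genes among the 9 whose window lies outside the deposited gene row. The positions, in the same order, are chrII:3643061-3643160 (plus strand), chrIII:917752-917851 (plus), chrI:2794801-2794900 (plus), chrII:2045375-2045474 (plus) and chrIII:2096037-2096136 (minus).
rpp201: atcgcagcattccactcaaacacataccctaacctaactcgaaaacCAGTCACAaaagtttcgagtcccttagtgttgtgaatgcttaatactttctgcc
rps1702: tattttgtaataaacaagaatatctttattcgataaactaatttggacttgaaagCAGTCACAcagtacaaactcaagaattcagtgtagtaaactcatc
rpl14: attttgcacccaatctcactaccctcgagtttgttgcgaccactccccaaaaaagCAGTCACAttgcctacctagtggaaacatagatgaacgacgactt
rpl8: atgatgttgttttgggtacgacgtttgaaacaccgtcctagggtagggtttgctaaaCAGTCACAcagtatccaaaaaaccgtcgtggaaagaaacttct
rps2: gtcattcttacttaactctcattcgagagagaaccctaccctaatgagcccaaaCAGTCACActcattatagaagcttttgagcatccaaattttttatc

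The genes of these windows spanned log2 ratios from 0.34 to 1.76. Even the lower ones had H4ac above H3, and rps2 was itself at least 1.5-fold above H3. In rpp201, H3 was 0.636 and 0.709 tags per nt and H4ac 2.36 and 2.24 (log2 ratio 1.76). In rps1702 the ratio was 1.24 and in rpl14 1.06. In rpl8, H3 was 0.920 and 0.918 and H4ac 1.2003 and 1.1316 (log2 ratio 0.34), and in rps2 the ratio was 0.67. Ribosomal protein genes with the box had a median of 1.05 (n = 87) and those without it 1.17 (49 genes), and the 47 other genes with the box had 0.06, at a median H3 of 0.99 tags per nt. The median of ribosomal protein genes was thus no higher with the box than without it. The other motifs searched on both strands, none of which is contained in the box, were AACCCT (in 8.30% of promoters), TATAAA (44.3%), ACGCGT (2.64%), TGACGT (5.52%), GTAAACA (14.8%), CCAAT (35.4%) and a run of 10 A (6.07%). Genes with them had medians from -0.11 to 0.05.

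Among other genes of protein synthesis, mitochondrial ribosomal proteins had a median of 0.46 (n = 76, 35 above and 1 below). They reached from mrpl35 at -1.02 to yml6 at 2.37, with H3 of 0.568 and 0.569 and H4ac of 2.996 and 2.944 tags per nt in yml6. Subunits of the RNA polymerases had 0.33 (n = 31), from the large subunit gene rpc1 (-1.17) to rpa43 (1.88). Translation factors were at -0.18 (n = 60), from tif52 (-1.08) to pth4 (1.27), and tRNA ligases at -0.28 (n = 35), from qrs1 (-0.87) to mse1 (0.96). Ribosome biogenesis genes were at -0.08 (n = 87), from enp2 (-1.18) to rrp15 (1.74), with 15 above and 17 below. The factors that assemble the ribosome were thus near the median of all genes.

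Core histone genes had a median of 0.64 (n = 11), with 6 above and none below. They are short, from 732 nt (hhf3) to 1983 nt (cnp1). The median of all genes was 0.85 from 500 to 1000 nt and 0.21 from 1000 to 2000 nt, so the list did not stand out from genes of like length. The histone H4 genes reached 1.67 (hhf1), 0.94 (hhf3) and 0.42 (hhf2), and the H3 genes 0.82 (hht3), 0.67 (hht1) and 0.27 (hht2). In hhf1, H3 density was 0.645 and 0.635 and H4ac 2.05 and 2.07 tags per nt. The CENP-A gene cnp1 had 1.07 and the H2A gene hta2 0.64, while hta1, the other H2A gene, had 0.02 (SE 0.03, limma adjusted p = 0.522), the H2B gene htb1 -0.22 and pht1, which codes for the variant H2A.Z, -0.38. Several of these genes lie in divergent pairs. Genes of the enzymes that place or remove acetyl groups had a median of -0.08 (n = 13), with 3 at least 1.5-fold above and 1 below. The acetyltransferase genes ranged from -0.11 (mst1) through -0.08 (elp3), 0.04 (mst2), 0.46 (hat1) and 0.64 (gcn5) to 0.80 (rtt109). The deacetylase genes had -0.38 (hst2), -0.26 (clr3), -0.10 (hst4), -0.09 (clr6), 0.13 (hos2) and 0.94 (sir2), and nat10, which the list also holds and whose product acetylates RNA, had -0.74. Factors of heterochromatin had a median of -0.28 (n = 20), from dcr1 (-0.76) to stc1 (1.11).

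Genes of glycolysis and fermentation split into groups. Of 19, 8 were at least 1.5-fold above H3 and 3 below, and the median was -0.04. The extremes were eno101 (enolase), with H3 of 0.242 and 0.266 and H4ac of 1.06 and 1.09 tags per nt (log2 ratio 2.04), and pdc102 in the subtelomeric run (-1.15). Chosen after their values were seen, pgk1 (phosphoglycerate kinase, 1.84), tdh1 (1.67), fba1 (1.43) and adh1 (1.37) had H3 between 0.272 and 0.393 and H4ac between 0.863 and 1.17, all below the H4ac median of 1.23. These enzymes are known for very high expression. The median H4ac of the mitochondrial rows, 1.08, lies within this range, but it was not corrected for the number of mitochondrial DNA copies per cell. The lowest H4ac density of a unique nuclear gene was 0.242 tags per nt. The part of such signal here was not tested. By contrast, pfk1 (phosphofructokinase, -0.83) and pgi1 (glucose-6-phosphate isomerase, -0.82) had H3 near the gene median, from 1.21 to 1.25, and H4ac from 0.678 to 0.697. Of the 8 genes at least 1.5-fold above H3, the pyruvate decarboxylase genes pdc101 (1.16, with H4ac of 1.34 and 1.29) and pdc202 (0.72, with H4ac of 2.29 in both replicates) had H4ac above the median and the other 6 had it below. Among the 115 ribosomal protein genes past that threshold, H4ac was above the median in 101.

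Chaperone genes (median -0.07, n = 24) ran from hsp9 (-1.53), with H3 of 0.878 and 0.831 and H4ac of 0.289 and 0.290 tags per nt, to ssa2. Stress response genes were spread widely around -0.21 (n = 35, 7 above and 13 below), from gld1 (-1.58), a glycerol dehydrogenase gene, to obr1 (2.22), with H3 of 0.791 and 0.706 and H4ac of 3.63 and 3.43. Proteasome genes had -0.23 (n = 35), from rpn2 (-1.26) to nas2 (0.98), and the vacuolar ATPase had 0.05 (n = 16), from vma1 (-0.89) to vma10 (0.85).

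Protein kinases had a median of -0.44 (n = 95), with 35 at least 1.5-fold below and 4 above, from the AMPK gene ssp2 (-1.31) to bud32 (1.64). At 2000 to 3000 nt their median was -0.48 (n = 40) against -0.17 for other genes. Transcription factors had -0.35 (n = 120, 38 below and 12 above), from mat3-Mc to taf9, with H3 of 0.536 and 0.544 and H4ac of 1.92 and 1.88 in taf9 (log2 ratio 1.796). At 2000 to 3000 nt their median was -0.26 against -0.18 for other genes. Targets of MBF, the factor of the G1/S transition, had -0.41 (n = 25, 8 below and none above), from mik1 (-1.24), an inhibitor of mitotic entry, to cdc22 (0.56), the large subunit of ribonucleotide reductase.

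Of 8 hexose transporter genes, ght7 (-1.74), ght3 (-1.46), ght6 (-1.37) and ght1 (-1.17) were at least 1.5-fold below H3, ght8 (-0.58), ght2 (-0.42) and ght5 (-0.14) were lower by less, and ght4 (0.82) was above. In ght7, which lies 39 kb from the left end of chromosome II, H3 was 1.498 and 1.448 tags per nt and H4ac 0.447 and 0.421. In ght4, H3 was 0.901 and 0.905 and H4ac 1.61 and 1.60. Other membrane transporters had a median of -0.25 (n = 71), from SPBPB2B2.16c (-1.67, with no unique 50-mer) to the mitochondrial pyruvate carrier gene mpc2 (2.05), and iron uptake genes -0.27 (n = 16), from shu1 to sib2 (0.51). Genes of cell wall glucan and chitin synthesis had -0.17 (n = 24). They held the glucan synthase gene ags1, whose ratio of -1.45 went with 8668 nt, and eng1 (1.51), a glucanase gene for cell separation, with H3 of 0.999 and 0.985 and H4ac of 2.82 and 2.87. Of 8 genes of cell surface glycoproteins and flocculins, pfl9 (-1.74) and pfl6 (-0.82) lie within 100 kb of an end, and the others had -0.31 (pfl2), -0.30 (pfl5), 0.02 (pfl4), 0.20 (pfl3), 0.72 (pfl7) and 1.08 (pfl8). Their median was -0.14, and 0.37 for the 4 with at least 90% unique 50-mers.

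Genes used in sexual development spanned wide ranges in these vegetative cells. Genes of mating and nitrogen starvation had -0.10 (n = 32), from inv1 (-1.17) to mam4 (1.34), genes of meiotic recombination and segregation -0.14 (n = 33), from spo6 to mcp6 (1.24), and the mug and meu genes, named for raised expression in meiosis, -0.00 (n = 110, 25 above and 27 below), from mug93 (-1.50) to mug115. The wtf genes, which include meiotic drivers, had -0.90 (n = 16, 11 below and none above), from wtf13 (-1.42) to wtf14 (0.24), and none lies within 100 kb of an end. The 4 wtf genes with at least 90% unique 50-mers had a median of -0.27. Of the 50-mers of wtf13, 21% are unique. At 2000 to 3000 nt, wtf genes were at -0.96 (n = 10) and other genes at -0.18. The 13 genes of Tf2 retrotransposons lay between -0.80 (Tf2-11) and -0.62 (Tf2-1), all at least 1.5-fold below H3, with the others at -0.69 (Tf2-9), -0.67 (Tf2-4, Tf2-8, Tf2-10 and Tf2-13), -0.65 (Tf2-2, Tf2-3 and Tf2-12), -0.64 (Tf2-5) and -0.63 (Tf2-6 and Tf2-7). Their near-identical sequence shares tags, so they are not 13 separate values. Sequence orphans and dubious genes had 0.36 (n = 373), from SPAC977.06 (-2.41, with 8.06% unique 50-mers) to SPAPB15E9.02c.

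**Figure D5:**
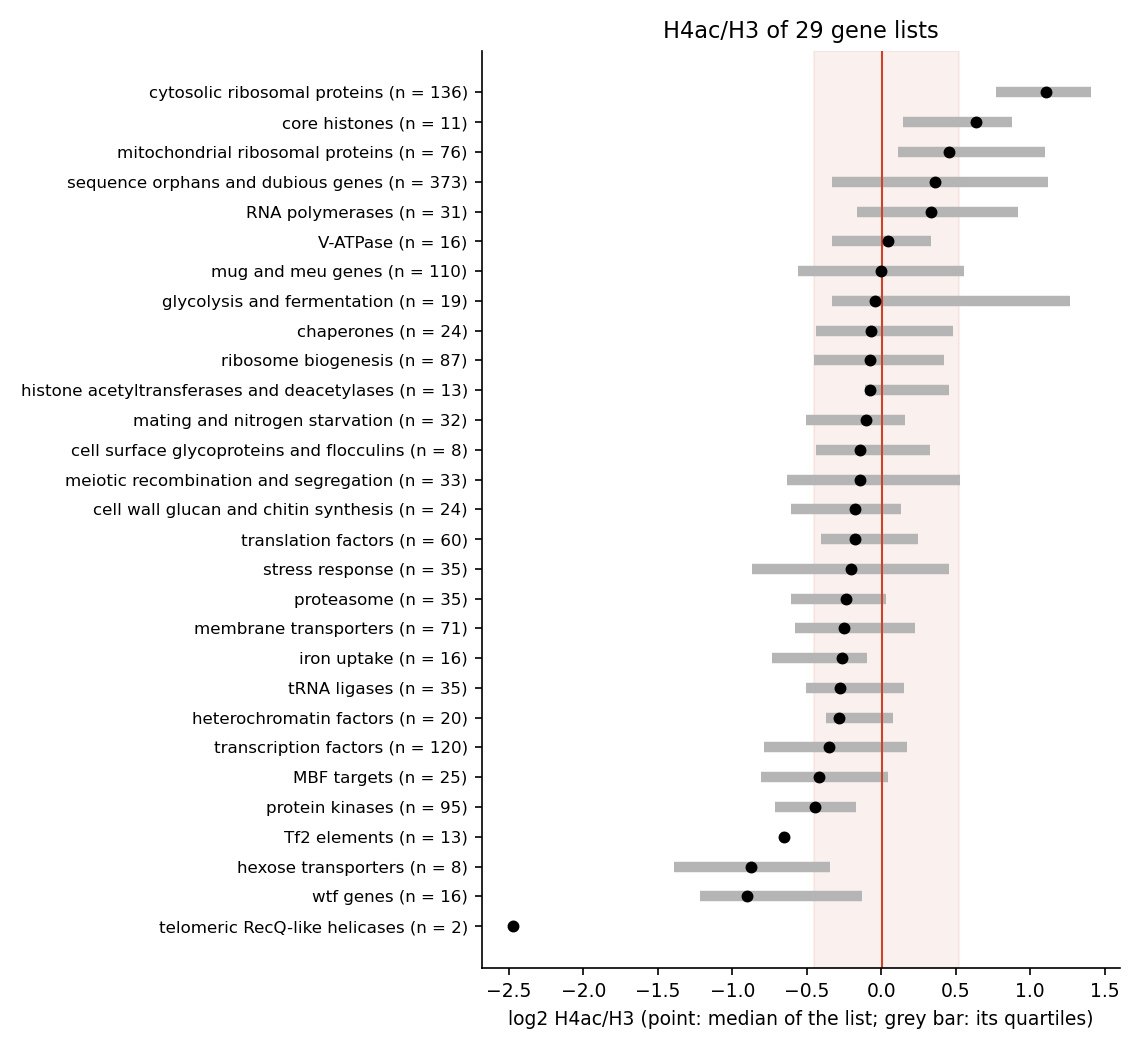
Median log2 H4ac/H3 (points, x axis) and quartiles (grey bars) of 29 gene lists, ordered by their median, with the number of genes beside each name. The red line and band are the median and the quartiles of all 5117 genes. Cytosolic ribosomal proteins lie at 1.11 with both quartiles above the band, and telomeric RecQ-like helicases (2 genes) lie at -2.47.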

How the data were processed

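For ChIP-seq, 6 libraries with columns in the deposited table were used (H3, H3K14ac and H4ac, 2 each), and 2 Input libraries were not analysed here. Reads were aligned by the authors with Bowtie2 to ASM294v2. They deposited a signal, the tag density in tags per nt of each annotated row, not divided by Input or H3. Which factor scaled each library, and how tags were assigned to rows, is not given in the sources used here. The 3 pooled columns were not used. Densities were tested as log2(density + 0.01) with limma 3.58.1 (R 4.3.3), H4ac against H3, with the spread estimated from all 6 libraries. The p-values were adjusted over all gene rows that passed the filter, mitochondrial rows included. Results are reported for the 5117 nuclear genes. A fold is on this scale. On simulated data with 100 genes changed by 1.2-fold and 100 by 1.5-fold among 5117, 100% of each were called, and 0.224% of unchanged genes.

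Symbols, products and mRNA starts came from RefSeq (ASM294v3), in which 5111 of 5118 gene identifiers were found. 99.9% of coding sequences begin with ATG there at the table's coordinates. Genes were named by rule: the 10 highest and the 10 lowest called genes, the extremes of each list, all members of lists of up to 15 genes, and the first, last and most extreme gene of the longest runs. Members, lists and tests were chosen with earlier results of these data known. Alternatives were other pseudocounts, no filter, the H4ac and H3 libraries alone, a replicate block, centring, left-out libraries and unique genes only. Multiplied by row length, 100% of the densities were whole multiples of 1 step per library, and voom weights on these recovered tags were added after seeing the data. An item that the choice of promoter windows would include is not reported here.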

Additional observations from a re-analysis of the deposited data

How the results depend on the processing

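The counts of genes above and below H3 stayed within 1.5 times under each alternative. At the 1.5-fold threshold, voom weights on recovered tags gave 1172 genes above and 967 below. The replicate differences had an r of -0.0089 between H3 and H4ac, 0.015 between H3 and H3K14ac and 0.12 between H3K14ac and H4ac. Not every pair exceeded 0.1, so the numbers were not taken to pair the libraries, and a replicate block gave 2407 genes above and 2336 below. Each of the 20 genes named as highest or lowest stayed significant in the same direction in all 13 alternative fits. Values without a test shifted by more than the small spread between replicate medians in 95 of 301 cases, the widest shift, 0.63, being that of the wtf genes, from -0.90 to -0.27 among unique genes. With a pseudocount of 0.1 the median was -1.53 within 20 kb of an end, 0.95 under 500 nt, -0.60 for genes of at least 5000 nt and 1.02 for cytosolic ribosomal proteins, and the difference between first and last exons was 1.15. With 0.001 the ribosomal proteins had 1.12. Genes of 1000 to 3000 nt alone gave -1.31 within 20 kb. Centring on the nuclear median gave -0.63 for genes of at least 5000 nt and 1.12 for ribosomal proteins, and unique genes alone -0.61 and 1.15. Exons of at least 200 nt (416 genes) gave a difference of 0.92. With 1 replicate number left out, the values ran from -1.67 to -1.64 within 20 kb, from 0.94 to 1.06 under 500 nt, from -0.63 to -0.62 for the longest genes, from 1.09 to 1.10 for ribosomal proteins and from 1.19 to 1.21 for the exon difference. The median of the mug and meu genes, near 0, changed sign with centring (0.0072), without replicate 1 (0.025) and without replicate 2 (0.023), and that of the glycoproteins and flocculins was 0.37 among unique genes, which leaves fewer genes. The cause of these shifts was not tested. Genes with few tags were less precise, with an SE of 0.14 in ssa2 against a median SE of 0.029.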
